A study of Mus musculus with 24 samples.

Results

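Time of day was compared in the livers of wild-type (WT) mice on a control diet, with 3 mice killed at circadian time 3 (CT03) and 3 at circadian time 15 (CT15). These are 6 of the 24 libraries of the series, chosen by their labels for genotype, diet and time, and all 14967 genes listed for them were tested. The whole series crossed genotype (WT, or a whole-body knockout of the protein kinase GCN2, KO), diet (Control, or LeuD, which has no leucine) and time of death, in 8 groups of 3 mice. Both groups compared here were WT and ate the Control diet throughout, as much as they wanted and in single housing. They adapted to that diet for 2 days in 12-h phases of light and dark, had 24 h more of that cycle, and then lived in constant darkness for 8 days until they were killed in red light and the liver was frozen. CT03 lies early in the subjective day, the rest phase of a mouse, and CT15 early in the subjective night, its active phase. The sources used here do not give strain, sex or age, nor how circadian time was assigned to each mouse in the dark. Food was present at all hours, so the hour and the time since a meal cannot be told apart.

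The circadian clock of mammals is a loop of transcription and its repression. The factors CLOCK and BMAL1 (encoded by Arntl) switch on the Per and Cry genes, whose proteins return to the nucleus and block CLOCK and BMAL1. A second loop runs through the REV-ERB repressors (Nr1d1, Nr1d2) and the ROR activators, which compete at the Arntl gene. In liver the loop drives factors of the PAR bZIP family (Dbp, Tef, Hlf), and with feeding and body temperature it times lipid, glucose and drug metabolism and the chaperones that fold proteins.

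Values are normalized counts, that is read counts divided by a factor for the depth of each library, and the 3 values of a group are always given in the order of replicates 1, 2 and 3. Each change is CT15 minus CT03 in log2(normalized count + 1), and is printed with its SE after the ± sign. A gene was called, and is said here to have risen or fallen, at an adjusted p under 0.05 in limma with Benjamini-Hochberg adjustment over all genes. The groups of a gene do not overlap where all 3 mice of one time lie above all 3 of the other. With 3 mice per group the p values measure the spread between these mice alone, and an exact permutation test of a single value could not go below 0.10. Libraries held 34135498 to 43544450 reads in listed genes, of which mitochondrially encoded genes took 4.92% to 6.012% and albumin, the main product of hepatocytes, 6.141% to 9.404%. The 7 hepatocyte markers were all present, with 0 called. The first principal component of 11982 genes, with 39.1% of the variance, set all CT03 mice (-24.6 to -18.1) apart from all CT15 mice (18.2 to 30.2), and the second, with 22.2%, set CT15 replicates 1 (-32.6) and 3 (23.5) apart from each other. In bulk tissue, fewer cells of a type and less RNA per cell cannot be told apart.

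In all 212 of the 14967 genes (1.42%) were called, of which 130 (0.869%) rose and 82 (0.548%) fell from CT03 to CT15. Another way to see the background is that the groups did not overlap for 1754 genes (11.7%) in the higher and for 1823 (12.2%) in the lower direction. The median change of all genes was 0.0027. Among the called genes the size of the change ran from 0.497 to 4.11 with a median of 1.03, and 111 changed by at least 2-fold, 76 of them higher. The 46 gene lists described below held 37 of the 212 called genes and 722 of the 14967 tested. With 1 mouse left out the number called was 133, 4 or 59 for CT03 replicate 1, 2 or 3 and 52, 62 or 56 for CT15 replicate 1, 2 or 3. Hspa1b, Nmrk1 and Wee1 were the 3 genes called in each of those 6 fits, while 79 of the 212 were called in none of them. Of the 59 called genes named below, 9 more were called in 5 of the 6 fits, Crot, Gys2, Lingo4, Nampt, Nr1d1, Per2, Sort1, Srsf5 and Usp2. Another 13 were called in none: Cars, Cd79a, Gas7, Glipr2, Hnrnpl, Inmt, Mcm4, Pfkfb1, Ptbp1, Serpina9, Sgk1, Slc37a4 and St6galnac3. The count also depended on the test, with 177 genes in edgeR, 906 in DESeq2 and 7 in limma without a trend of the variance on the level. The authors' deposited table lists 514 genes (3.51%) as higher and 393 (2.69%) as lower with adjusted p values below 0.05, and it holds each of the 212 with the same direction.

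Of the activators of the clock, Npas2, Clock, Arntl and Rora were not called. Npas2, which can stand in for CLOCK as the partner of BMAL1, had normalized counts of 88.1, 157 and 155 at CT03 and 9.77, 46.3 and 3.89 at CT15. Its change of -3.26 ± 0.75 was the largest of these 4 (adjusted p = 0.0854), and CT15 replicate 2 lay well above its mates. Clock itself also had groups that did not overlap, at 1938, 2412 and 1962 against 1480.3, 1792 and 1350 (-0.45 ± 0.14, adjusted p = 0.159). Arntl had 744, 734 and 873 at CT03 and 526, 838 and 445 at CT15. Here CT15 replicate 2 was again the highest of its group and lay within the CT03 range, and the change of -0.43 ± 0.22 was not called (adjusted p = 0.369). Rora, a nuclear receptor that activates Arntl, overlapped between the times (-0.02 ± 0.15, adjusted p = 0.953).

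The repressors carried most of the clock's called genes, with 6 of 10 called higher and 1 lower. Per2, a core repressor, had 376, 459.5 and 530.1 at CT03 and 1846, 3474 and 2282 at CT15. The change was 2.44 ± 0.23 (adjusted p = 0.00718), and the lowest CT15 mouse lay far above the highest CT03 mouse. Its relative Per3 had 144, 42.8 and 139.9 at CT03 and 699, 599 and 912 at CT15 (2.91 ± 0.44, adjusted p = 0.0315), with CT03 replicate 2 the lowest of the 6 mice. Per1, the Per gene that responds fastest to hormones and light, had 316, 166 and 158 and 627, 548 and 611 (1.55 ± 0.26, adjusted p = 0.0384). All Per genes were thus higher in the early subjective night, with no overlap. The cryptochrome genes, whose proteins hold CLOCK and BMAL1 inactive, rose by less. Cry1 had 499.6, 496 and 686 at CT03 and 1226, 1499.5 and 1270.3 at CT15 (1.26 ± 0.15, adjusted p = 0.0180). Cry2 had 906, 863 and 1071 and 1551, 1798 and 1645 (0.82 ± 0.11, adjusted p = 0.0252).

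Nr1d1, which encodes the haem-binding repressor REV-ERBα, was the 1 repressor that fell. It had 1823, 1902 and 2773 at CT03 and 369.6, 268 and 501 at CT15, a change of -2.53 ± 0.25 (adjusted p = 0.00718). Its paralog Nr1d2 (REV-ERBβ) was not called. It had 1666, 1416 and 1307 and 1864, 757 and 1765 (-0.10 ± 0.32, adjusted p = 0.899). CT15 replicate 2 lay below all CT03 mice and its mates above them. Ciart, a repressor that binds the CLOCK and BMAL1 complex, rose from a low level, with 33.0, 11.4 and 44.7 at CT03 and 180.4, 187 and 177 at CT15 (2.77 ± 0.45, adjusted p = 0.0359). Of the DEC repressors, which occupy the same DNA sites as CLOCK, Bhlhe40 had 3819.8, 2697 and 3188 and 8488, 8292 and 4679 (1.11 ± 0.24, adjusted p = 0.0735). It was not called although its groups did not overlap, and Bhlhe41 overlapped (0.44 ± 0.35, adjusted p = 0.566). With 1 mouse left out, the 6 higher calls among repressors became 4, 1 or 4 for CT03 replicate 1, 2 or 3 and 2, 1 or 3 for CT15 replicate 1, 2 or 3. In edgeR 5 higher calls and 1 lower call remained, without Per1 (adjusted p = 0.0514).

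**Figure D1:**
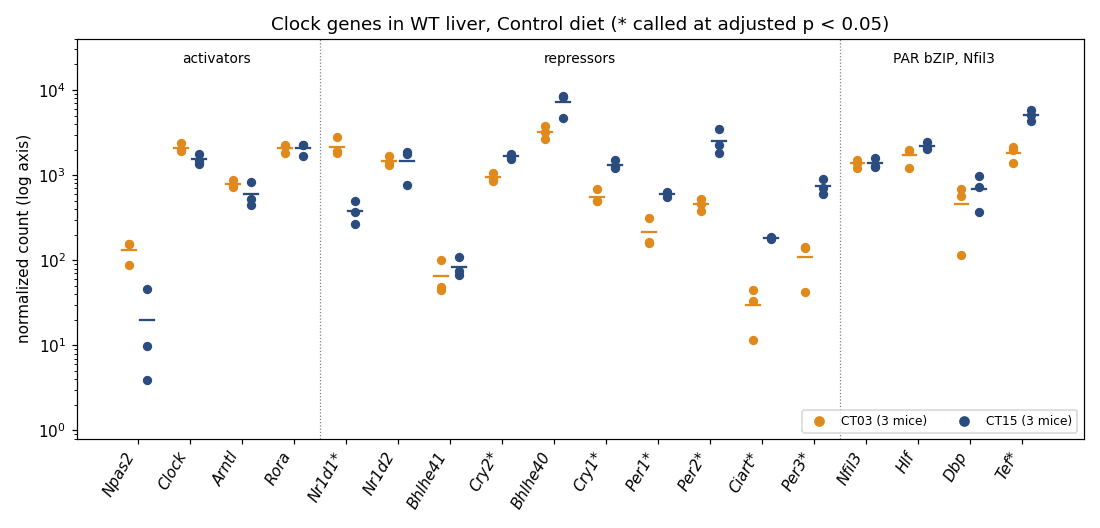
Normalized counts (log axis) of 18 clock genes in each of the 3 CT03 and 3 CT15 mice, with a bar at the mean of each group and called genes marked by a star. The points of Per2, Nr1d1, Cry1, Ciart and Tef form separate bands at the 2 times, while those of Rora, Nr1d2, Nfil3 and Dbp overlap.

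The PAR bZIP factors and their competitor Nfil3 bind the same DNA element, called the D-box, with opposite action. Tef had 2168, 1384 and 1964 at CT03 and 5060.4, 4296 and 5846 at CT15 and was the 1 of 4 genes called (1.48 ± 0.18, adjusted p = 0.0188). Hlf had 1226, 1930.4 and 1961 and 2018, 2448 and 2118, which did not overlap but missed the threshold (0.39 ± 0.19, adjusted p = 0.330). For Dbp the mice of each time were far apart, at 696, 114 and 571 and 725, 368 and 968. CT03 replicate 2 had the lowest Dbp of its group and CT15 replicate 2 the lowest of the other, and the change of 0.83 ± 0.66 was not called (adjusted p = 0.562). Nfil3 was level, at 1225, 1381 and 1519.9 and 1269, 1248 and 1613 (-0.0028 ± 0.13, adjusted p = 0.995). Of 10 genes for kinases and ubiquitin ligases of clock proteins and for the PER partners Timeless and Tipin, 0 were called. The one with the lowest p, Timeless, which also acts at replication forks, changed by 0.51 ± 0.18 (adjusted p = 0.204). Beside that 0, 1.42% of all genes were called. An unadjusted p under 0.05 in limma was found for 1 of the 10, and for 2564 of all 14967 genes.

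CT03 replicate 2 was the lowest of its 3 mates in 9 of the 19 clock genes and the highest in 3, and CT03 replicate 3 was the lowest in 2 and the highest in 10. At CT15 no mouse was the lowest or the highest in more than 9 of the 19. Mice of the same labelled hour thus differed by several-fold in single clock genes such as Dbp, Per3, Ciart and Npas2.

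Promoters of named called genes were searched for DNA elements known to be bound by factors of these pathways, and those of the 6 genes with the lowest p that held one are printed, 4 here and 2 with the chaperones. The E-box searched was CACGTG, the site of CLOCK and BMAL1, and the D-box was TTATGTAA, the site of the PAR bZIP factors and Nfil3, each on both strands. RefSeq promoters on GRCm38.p6, a build that differs from that of the counts, run from 250 bases before to 50 after a start of transcription. Of 49 called genes named by the rule 35 had a promoter in that table, and 11 of these held an element. The promoters of Cry1 (chr10:85185005-85185304, minus strand), Tef (chr15:81802423-81802722, plus strand, the first of 2 listed starts, both with an E-box), Per3 (chr4:151044616-151044915, minus strand) and Fkbp5 (chr17:28486100-28486399, minus strand) follow 5′ to 3′, with the E-box or D-box in capitals.
Cry1: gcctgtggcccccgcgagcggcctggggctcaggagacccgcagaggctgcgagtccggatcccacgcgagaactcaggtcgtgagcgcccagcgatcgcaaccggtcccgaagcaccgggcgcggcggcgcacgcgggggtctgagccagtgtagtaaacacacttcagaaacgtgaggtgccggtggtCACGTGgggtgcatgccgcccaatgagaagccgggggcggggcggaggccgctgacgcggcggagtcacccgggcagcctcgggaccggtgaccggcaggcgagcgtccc
Tef: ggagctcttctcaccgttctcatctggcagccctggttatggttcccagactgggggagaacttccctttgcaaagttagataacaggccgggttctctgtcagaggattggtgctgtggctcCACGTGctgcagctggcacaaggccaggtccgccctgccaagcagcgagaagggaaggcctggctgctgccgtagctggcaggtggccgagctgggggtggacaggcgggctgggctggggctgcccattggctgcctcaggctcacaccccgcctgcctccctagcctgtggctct
Per3: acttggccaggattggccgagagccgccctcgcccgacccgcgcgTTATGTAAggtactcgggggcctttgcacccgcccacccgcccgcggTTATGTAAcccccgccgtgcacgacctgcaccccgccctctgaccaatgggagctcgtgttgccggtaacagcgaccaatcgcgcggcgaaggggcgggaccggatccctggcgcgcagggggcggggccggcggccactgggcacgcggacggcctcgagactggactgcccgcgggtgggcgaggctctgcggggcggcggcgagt
Fkbp5: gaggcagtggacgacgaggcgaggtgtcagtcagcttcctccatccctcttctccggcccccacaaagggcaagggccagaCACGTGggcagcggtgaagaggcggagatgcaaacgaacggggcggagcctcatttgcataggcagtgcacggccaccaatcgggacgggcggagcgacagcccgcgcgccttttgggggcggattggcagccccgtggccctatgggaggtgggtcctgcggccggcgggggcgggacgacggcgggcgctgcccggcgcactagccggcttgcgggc
Per3 shows a pair of D-boxes and the others an E-box each. An E-box stood in 7.15% of all 32851 promoters and in 11.4% of the 10946 tested genes with a promoter, against 16 of 96 called-higher genes (16.7%) and 7 of 61 called-lower genes (11.5%). A D-box stood in 0.938% of all promoters and in 0.713% of tested genes, against 5 of the 96 (5.21%) and 0 of the 61. The 5 were Per3, Phf19, Prnp, Slc16a12 and Wnt5b, which were picked out after their matches were seen. The REV-ERB and ROR element TAGGTCA was also searched, and stood in 2.58% of tested, 1.04% of called-higher and 1.64% of called-lower genes. In the same order the cyclic AMP response element TGACGTCA stood in 3.4%, 2.08% and 0%. The unfolded protein response element TGACGTGG stood in 1.02%, 1.04% and 1.64%. A match of letters is no evidence of binding, and the table of starts is not complete.

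Output genes, which the clock factors drive in liver without being part of the loop, had 7 of 16 members called higher and 0 lower, with 10 higher without overlap and a median change of 1.416. Usp2, a ubiquitin protease, had 152, 66.6 and 103 at CT03 and 1193, 837 and 1708 at CT15, the largest change of the list (3.54 ± 0.34, adjusted p = 0.00718). Wee1, a kinase that holds cells before mitosis and a classic E-box target of the liver clock, had 174, 110.4 and 219 and 1054, 994 and 896 (2.59 ± 0.23, adjusted p = 0.00718). Both were separated by wide gaps. Nampt, the rate-limiting enzyme of NAD salvage, had 1863, 1537 and 1757 and 4281, 3804 and 4969 (1.34 ± 0.13, adjusted p = 0.00718). Gys2, the glycogen synthase of liver, had 4205, 4421 and 4666 and 9247, 8919.6 and 12176 (1.18 ± 0.13, adjusted p = 0.0147). The other called members were Lonrf3 (1.497 ± 0.19), a ubiquitin ligase, Alas1 (2.05 ± 0.36), the first enzyme of haem synthesis, and Inmt (1.11 ± 0.20), a methyltransferase. Lonrf3 and Inmt were picked out after their values were seen. The 7 calls became 1 without CT03 replicate 2 and 4 without any 1 CT15 mouse. Elovl3, a fatty acid elongase also chosen after its values were seen, had 10355, 25764 and 25100 and 12710, 9084 and 1083 and was not called (-1.91 ± 0.85, adjusted p = 0.304).

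Cytosolic heat shock chaperones, which the factor HSF1 induces when proteins unfold or body temperature rises, had 4 of 22 members called higher and 0 lower. A total of 16 were higher and 1 lower without overlap, and the median change of 0.5227 compares with 0.0027 for all genes. Hspa1b, an inducible HSP70, had 275, 409 and 361 at CT03 and 1616, 1688 and 1836 at CT15. Its change of 2.31 ± 0.15 had the lowest p of all genes tested (adjusted p = 0.00643). The near-identical Hspa1a had 32.0, 43.8 and 54.1 and 279.9, 175 and 181 (2.26 ± 0.27, adjusted p = 0.0171), and how reads were split between both genes is uncertain. Hsph1, a nucleotide exchange factor for HSP70, had 2374, 1487 and 1882 and 3561, 5178 and 4225 (1.18 ± 0.19, adjusted p = 0.0376). Dnajb1, an HSP40 that hands clients to HSP70, had 1336, 1082 and 1121 and 1819, 1748 and 1915 (0.64 ± 0.11, adjusted p = 0.0398). All of these had their lowest CT15 mouse above their highest CT03 mouse. Hspa8, the constitutive HSP70, had 37269, 30142 and 39908 and 56977, 60776 and 82988 (0.89 ± 0.19, adjusted p = 0.0730), and Hsp90aa1, the inducible HSP90, changed by 0.95 ± 0.21 (adjusted p = 0.0780). Neither was called, and both were chosen after their values were seen. The 4 calls became 1 without CT03 replicate 2 and 2 without CT03 replicate 3 or any 1 CT15 mouse. The members took 3577 to 4172 RPM (reads per 1e6 reads of the library) at CT03 and 5005 to 5841 at CT15.

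The promoters of both inducible HSP70 genes held the core of a heat shock element (GAANNTTC, where N is any base), shown here in capitals, on the minus strand at chr17:34959189-34959488 for Hspa1b and chr17:34972107-34972406 for Hspa1a (GRCm38.p6).
Hspa1b: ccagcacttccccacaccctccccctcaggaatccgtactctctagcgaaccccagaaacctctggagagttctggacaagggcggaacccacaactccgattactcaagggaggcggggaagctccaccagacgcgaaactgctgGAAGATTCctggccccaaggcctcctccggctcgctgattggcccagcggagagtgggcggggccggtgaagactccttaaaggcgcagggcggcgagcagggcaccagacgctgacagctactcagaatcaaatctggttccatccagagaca
Hspa1a: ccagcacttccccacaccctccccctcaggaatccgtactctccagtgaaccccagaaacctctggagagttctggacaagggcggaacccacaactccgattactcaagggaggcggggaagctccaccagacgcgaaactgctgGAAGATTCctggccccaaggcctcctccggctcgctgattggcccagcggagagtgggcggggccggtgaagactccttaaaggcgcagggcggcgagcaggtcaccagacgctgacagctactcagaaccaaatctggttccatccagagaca
The 2 sequences matched at 296 of 300 positions, which shows how alike these genes are. The core stood in 7.86% of all promoters and in 7.03% of tested genes, and in 10 of the 17 list members with a promoter. Other lists were searched for their own elements. An E-box stood in 4 of 8 clock repressors, 1 of 4 PAR bZIP and Nfil3 genes and 2 of 13 clock outputs. A D-box stood in 1 of the 8 repressors and 1 of the 13 outputs. The REV-ERB and ROR element stood in 1 of 4 clock activators, and the unfolded protein response element in 0 of 21 ER genes. Among all called genes the heat shock core stood in 10.4% of the higher and 6.56% of the lower ones.

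Cirbp and Rbm3 encode RNA-binding proteins that mild cooling induces, and body temperature of mice is low in the rest phase. Cirbp had 588, 1025 and 979 at CT03 and 459, 463 and 528 at CT15 (-0.80 ± 0.21, adjusted p = 0.116). Rbm3 had 869, 1277 and 1345 and 1744, 1571 and 2212 (0.67 ± 0.19, adjusted p = 0.140). The pair therefore lay on opposite sides of zero, both without overlap and neither called.

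Chaperones of the endoplasmic reticulum (ER) fold the secreted proteins of hepatocytes, and of 25 measured genes of that list 2 were called lower and 0 higher. All 25 had a negative change, 17 of them without overlap (median -0.5712). Sdf2l1, a co-chaperone of BiP, had 2064, 3073 and 2392 at CT03 and 921, 1328 and 796 at CT15 (-1.32 ± 0.21, adjusted p = 0.0359). Manf, which holds BiP bound to its clients, had 7041, 8918 and 9634 and 5277, 4353 and 4440.2 (-0.86 ± 0.14, adjusted p = 0.0376). BiP itself, encoded by Hspa5, had 33393, 43546 and 41201 and 25342, 24038 and 21964 (-0.72 ± 0.14, adjusted p = 0.0609). The disulfide isomerase gene Pdia4 had 8123, 12000 and 10476 and 5672, 6558 and 5610.3 (-0.76 ± 0.15, adjusted p = 0.0624). Both missed the threshold, although no CT15 mouse reached the lowest CT03 mouse. Hyou1, an ER HSP70 relative, changed by -0.85 ± 0.18 (adjusted p = 0.0699), and Xbp1, a transcription factor of the unfolded protein response, by -0.23 ± 0.12 (adjusted p = 0.346), both chosen after their values were seen. The list took 7500 to 8895 RPM at CT03 and 5565 to 6133 at CT15. The 2 calls became 6 without CT03 replicate 1, 1 without CT15 replicate 2, and 0 without any 1 of the other 4 mice.

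**Figure D2:**
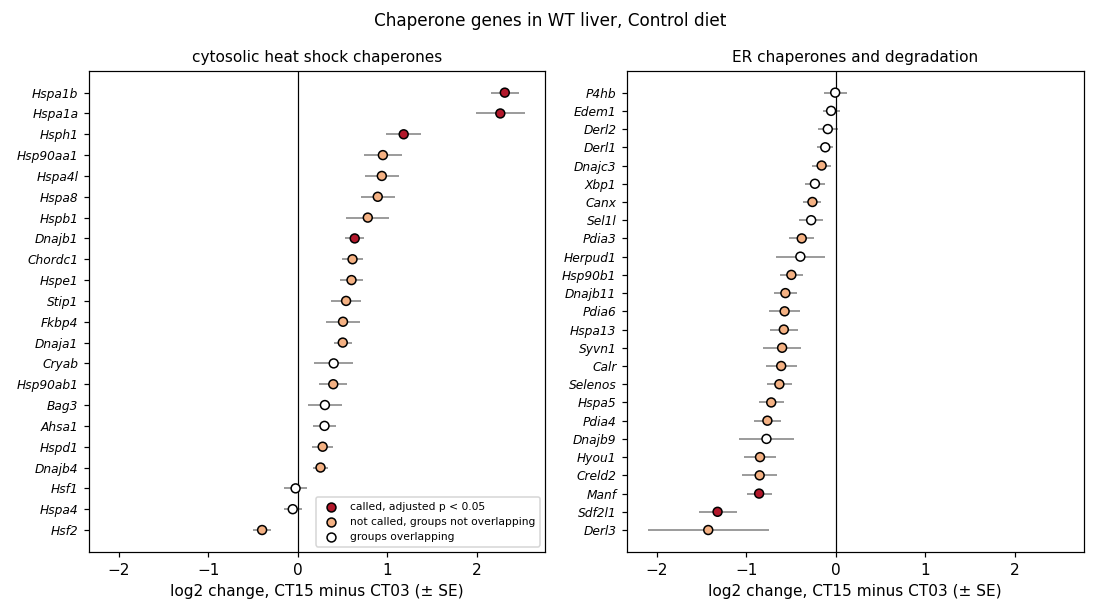
Change from CT03 to CT15 (log2, points) with its SE (bars) for each measured gene of the cytosolic heat shock list and of the ER list. Filled red points are called genes, pale points have groups that do not overlap, and open points overlap. The 25 ER genes all lie left of zero, and 19 of the 22 cytosolic genes lie right of it.

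Of 24 genes of fatty acid and triglyceride synthesis 4 were called higher and 0 lower, 13 were higher without overlap, and all 24 had a positive change (median 1.057). Thrsp, a nuclear protein that promotes lipogenesis, had 4227, 5787 and 14669 at CT03 and 107590, 60149 and 74843 at CT15 (3.47 ± 0.43, adjusted p = 0.0188). Elovl6, which lengthens palmitate, had 2656, 5957 and 8826 and 42193, 30333 and 31719 (2.73 ± 0.39, adjusted p = 0.0257). Their CT15 groups were many-fold higher, and CT03 replicate 1 had the least of both. Acly, which makes cytosolic acetyl-CoA from citrate, had 8275, 15202 and 13422 and 57167, 52201 and 35923 (2.00 ± 0.26, adjusted p = 0.0209). Acacb, an acetyl-CoA carboxylase, had 2043, 3878 and 4691 and 13173, 10100 and 9569.9 (1.70 ± 0.29, adjusted p = 0.0405). CT03 replicate 1 was again the lowest mouse. Fasn, the fatty acid synthase, had 12185, 34260 and 46463 and 152660, 155990 and 66480 (2.12 ± 0.52, adjusted p = 0.101), and the phosphatidate phosphatase gene Lpin1 809, 1286 and 1494 and 4243, 3426 and 16495 (2.42 ± 0.55, adjusted p = 0.0822). Neither was called, and in Lpin1 CT15 replicate 3 stood far above its mates. Scd1, the desaturase, had 184410, 354440 and 604620 and 1150900, 817310 and 672500 (1.33 ± 0.49, adjusted p = 0.221), and Srebf1, which encodes the factor SREBP that induces these enzymes, overlapped (0.50 ± 0.29, adjusted p = 0.419). Fasn, Lpin1, Scd1 and Srebf1 were chosen after their values were seen. The list took 10350 to 22810 RPM at CT03 and 27570 to 47060 at CT15. With 1 mouse left out, the 4 calls became 4, 0 or 2 for CT03 replicate 1, 2 or 3 and 0, 2 or 1 for CT15 replicate 1, 2 or 3.

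Cholesterol synthesis had 1 of 27 members called, with 12 higher and 1 lower without overlap and a median of 0.7256. Acat2 (0.89 ± 0.21, adjusted p = 0.0907), a thiolase at the head of the pathway, and Lss (1.22 ± 0.30, adjusted p = 0.100), lanosterol synthase, were higher without overlap but not called. The 1 call was lost without CT03 replicate 2, CT15 replicate 2 or CT15 replicate 3. Outside both lists Aacs, a cytosolic ligase that feeds ketone bodies into lipid synthesis, rose by 2.16 ± 0.36 (adjusted p = 0.0384) and Crot, a peroxisomal carnitine transferase of fatty acid breakdown, fell by 1.36 ± 0.12 (adjusted p = 0.00718). Crot had 30098, 36394 and 29252 at CT03 and 12427, 12687 and 11926 at CT15, with close values within each group. Aacs and Crot were chosen after their values were seen.

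**Figure D3:**
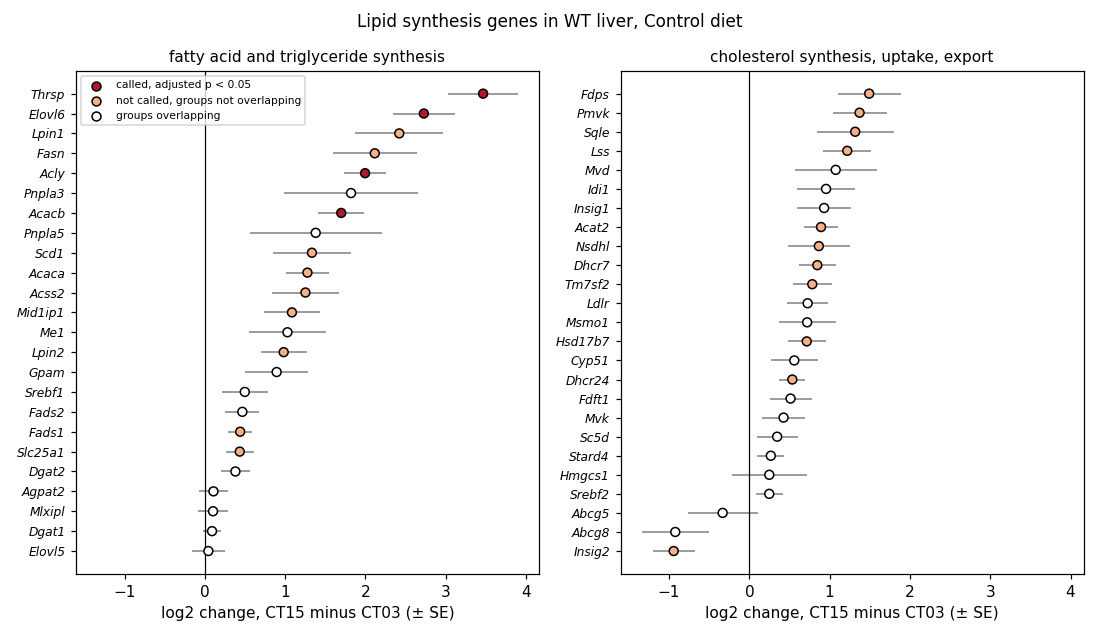
Change from CT03 to CT15 (log2, points) with its SE (bars) for 24 genes of fatty acid and triglyceride synthesis and 25 of cholesterol synthesis, uptake and export. Red points are called, pale points have groups that do not overlap and open points overlap. All 24 genes of the first group and 22 of the 25 of the second lie right of zero, with wide bars for many.

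Bile acid genes had 0 of 13 called. Of those with the lowest p, Abcb11, the bile salt export pump, had 27437, 29289 and 25039 at CT03 and 18291, 15234 and 10130 at CT15 (-0.94 ± 0.21, adjusted p = 0.0785), and Abcb4, the phospholipid flippase of bile, had 10745, 10542 and 10986 and 8273, 6540.2 and 7559 (-0.54 ± 0.11, adjusted p = 0.0665). The groups of both were apart. Nr0b2 (SHP), the repressor through which bile acids shut down their own synthesis, had 1141, 1977 and 2473 and 1118, 361 and 585 (-1.52 ± 0.42, adjusted p = 0.129). Fatty acid oxidation and PPARα targets had 1 of 24 called, the mitochondrial thioesterase gene Acot2, with 156, 168 and 215 and 388, 368 and 387 (1.09 ± 0.15, adjusted p = 0.0252). The call was kept without CT03 replicate 1 or 3 and lost without any 1 of the other 4 mice. Acot2 has a close paralog in Acot1, so its count is uncertain. Fgf21, a fasting and stress hormone of liver, had 174, 106 and 92.9 and 78.2, 64.8 and 32.1 (-1.12 ± 0.38, adjusted p = 0.190).

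In glucose and glycogen metabolism 2 of 22 genes passed as higher and 0 as lower, Gys2 and Pfkfb1. Pfkfb1, the enzyme that sets the signal between glycolysis and gluconeogenesis, had 976, 593 and 967 at CT03 and 1685, 1812 and 2648 at CT15 (1.28 ± 0.24, adjusted p = 0.0485). The 2 calls became 0 without CT03 replicate 2 and 1 without any 1 of the other 5 mice. Fbp1, a gluconeogenic phosphatase, had 44288, 38379 and 51507 and 66357, 63307 and 66601 (0.56 ± 0.15, adjusted p = 0.127). It was not called, though its groups did not overlap. Slc37a4, the transporter that brings glucose phosphate into the ER, rose (1.07 ± 0.20, adjusted p = 0.0487) and was chosen after its values were seen. Slc2a4, the insulin-regulated glucose transporter GLUT4, which is scarce in liver, had 29.0, 10.5 and 18.8 and 340.3, 111 and 222 (3.43 ± 0.48, adjusted p = 0.0252). The glycogen-targeting subunit gene Ppp1r3g had 8.01, 11.4 and 8.23 and 21.3, 12.4 and 292, with CT15 replicate 3 far above the other 5 mice (2.13 ± 1.03, adjusted p = 0.336, chosen after its values were seen).

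Insulin and FOXO targets had 0 of 12 called, of which Foxo3, a forkhead factor that insulin keeps out of the nucleus, had the lowest p (0.49 ± 0.11, adjusted p = 0.0909). The growth hormone axis had 0 of 13 called and a wide spread between mates. Cish, a feedback inhibitor induced by growth hormone through STAT5, had 242, 165 and 87.0 at CT03 and 599.8, 193 and 1291 at CT15 (1.80 ± 0.65, adjusted p = 0.215). Bcl6, a repressor that growth hormone lowers, had 733, 1735 and 2714 and 287, 2057 and 287 (-1.45 ± 0.79, adjusted p = 0.389). Single mice thus spanned most of the range at 1 time point. Onecut1, a hepatocyte transcription factor, had 732, 760.2 and 302 and 1387, 970.5 and 1802 (1.28 ± 0.37, adjusted p = 0.142).

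Glucocorticoid-induced genes had 3 of 13 called higher and 1 lower. Fkbp5, a co-chaperone that dampens the glucocorticoid receptor, had 627, 617 and 705 at CT03 and 1719, 2232 and 4269 at CT15 (1.97 ± 0.29, adjusted p = 0.0302), with its E-box promoter printed above. Tsc22d3 (GILZ), an anti-inflammatory mediator of the hormone, had 2285, 2587 and 2142 and 3759.5, 5441 and 4446 (0.95 ± 0.15, adjusted p = 0.0336). Per1 is the other called-higher member. Sgk1, a kinase, fell from 1047, 931 and 992 to 710.0, 623 and 537 (-0.68 ± 0.13, adjusted p = 0.0490), against the direction of the other called members. Serpina6, which encodes the plasma carrier of corticosterone and was chosen after its values were seen, had 5493, 5855 and 5489.5 and 11321, 21441 and 25954 (1.72 ± 0.27, adjusted p = 0.0349). With 1 mouse left out, the 3 higher calls of the list became 1, 0 or 0 for CT03 replicate 1, 2 or 3 and 2, 0 or 1 for CT15 replicate 1, 2 or 3. The lower call was lost in each of these fits. In edgeR 2 higher and 0 lower calls remained, with Per1 and Sgk1 both at an adjusted p of 0.0514. Immediate-early genes, which mark recent stimulation or handling, had 0 of 17 called, and of these Nr4a1, an orphan nuclear receptor, changed by -0.92 ± 0.27 (adjusted p = 0.145).

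In the urea cycle and amino acid catabolism 2 of 34 genes passed as higher and 0 as lower. Asl, which splits argininosuccinate, had 19774, 11783 and 17442 at CT03 and 33401, 35020 and 44860 at CT15 (1.23 ± 0.21, adjusted p = 0.0409). Prodh, which starts proline breakdown, had 4598, 4848 and 7379 and 12475, 11168 and 12678 (1.14 ± 0.18, adjusted p = 0.0342). Without CT03 replicate 1 or 3 the list had 1 higher call, and without any 1 of the other 4 mice 0 higher calls (1 lower without CT15 replicate 2). The ATF4 and integrated stress response list had 0 of 29 called. Atf5, a stress-regulated factor, had 26779, 19307 and 23410 and 11662, 13434 and 7753 (-1.11 ± 0.22, adjusted p = 0.0589), and Cebpb, a factor of gluconeogenesis and the acute phase, had 2467, 903 and 1036 and 5105, 2471 and 2836 (1.32 ± 0.40, adjusted p = 0.162). Both had groups that did not overlap, in opposite directions. The kinases that phosphorylate eIF2 had 0 of 4 called. Eif2ak4, which encodes GCN2, had 328, 362 and 337 and 347, 329 and 297 (-0.08 ± 0.12, adjusted p = 0.780). Eif2ak3 (PERK) changed by -0.36 ± 0.20, Eif2ak1 (HRI) by -0.14 ± 0.09 and Eif2ak2 (PKR) by -0.14 ± 0.13. Sars and Cars, the seryl and cysteinyl tRNA synthetases, fell by 0.61 ± 0.08 (adjusted p = 0.0201) and 0.97 ± 0.17 (adjusted p = 0.0461), and both were chosen after their values were seen.

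Of drug metabolism genes 1 of 17 was called higher, Alas1, with 4366, 2665 and 1649 at CT03 and 8305, 10260 and 16133 at CT15 (adjusted p = 0.0432). Por, the electron donor of the cytochromes P450, had 6694, 3369.9 and 5647 and 15090, 12418 and 33241 (1.87 ± 0.38, adjusted p = 0.0676). Cyp2a5, a P450 that oxidizes coumarin, had 3992, 3455 and 6239.5 and 10096, 20052 and 58027 (2.36 ± 0.56, adjusted p = 0.0922). CT15 replicate 3 was the highest of the 6 mice in all of these. It was so too in Cyp2b10, the marker of the receptor CAR, with 32.0, 11.4 and 16.5 and 50.6, 150.3 and 438 (2.97 ± 0.73, adjusted p = 0.101). The NAD list had 1 of 11 called, Nampt, to which Nmrk1, a nicotinamide riboside kinase chosen after its values were seen, adds 489, 589 and 605 at CT03 and 1967, 1625 and 1978 at CT15 (1.73 ± 0.13, adjusted p = 0.00713). The haem and iron list had 1 of 17 called, Alas1 again. With 1 mouse left out, Alas1 was called in 1 of 6 fits, that without CT03 replicate 1. In edgeR it was not called (adjusted p = 0.0599). Glutathione and NRF2 targets had 0 of 12 called, and Gclc, the rate-limiting enzyme of glutathione synthesis, changed by -0.82 ± 0.21 (adjusted p = 0.108).

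In the list of DNA replication and cell cycle genes 3 of 25 were called higher and 0 lower, and 9 were higher without overlap. Besides Wee1 these were Rrm2, the regulated subunit of ribonucleotide reductase, with 185, 149 and 281 at CT03 and 678, 483 and 603 at CT15 (1.55 ± 0.24, adjusted p = 0.0342), and Mcm4, a subunit of the replicative helicase, with 174, 163 and 145 and 304, 307 and 268 (0.87 ± 0.14, adjusted p = 0.0376). Rrm1, the other subunit of the reductase, changed by 0.42 ± 0.11 (adjusted p = 0.106). The 3 calls became 2 without CT03 replicate 1 or 3 and 1 without any 1 of the other 4 mice. With 10 of the 25 below zero, the list's median was 0.1239.

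Large changes were also found outside these pathways. Lingo4, a membrane protein with leucine-rich repeats, had 19.0, 23.8 and 31.7 at CT03 and 194, 252 and 291 at CT15 (3.26 ± 0.26, adjusted p = 0.00718). Tnnc1, troponin C of slow muscle and heart, had 4.01, 17.1 and 17.6 and 88.0, 127 and 99.2 (3.13 ± 0.52, adjusted p = 0.0384), and Slc22a27, an organic anion transporter, 10.01, 16.2 and 11.8 and 41.8, 147 and 178 (2.96 ± 0.54, adjusted p = 0.0461). All were low at CT03 and clearly higher at CT15. Among the genes that fell, Sort1 (sortilin, a sorting receptor for lipoproteins) had 1100.4, 1159.8 and 991 and 479, 376 and 314 (-1.49 ± 0.16, adjusted p = 0.0122). Spon2, a secreted matrix protein, had 579, 868 and 729 and 132, 216 and 70.0 (-2.49 ± 0.37, adjusted p = 0.0302). Serpina9, a protease inhibitor, had 273, 98.0 and 102 and 22.2, 7.20 and 26.3 (-3.03 ± 0.56, adjusted p = 0.0485). The fall of these was several-fold. Selenbp2, a selenium-binding protein with a close paralog, fell by 2.39 ± 0.42, St6galnac3, a sialyltransferase, by 1.75 ± 0.28, and Eps8l2, an actin regulator, by 1.60 ± 0.22. Fbxo21, a ubiquitin ligase subunit, fell by 1.53 ± 0.26, Gas7, a cytoskeletal adaptor, by 1.503 ± 0.26, and Glipr2, a Golgi-associated protein, by 1.49 ± 0.25. Srsf5, a splicing factor, had 10157, 10662 and 10811 at CT03 and 5474, 5141 and 5549 at CT15 (-0.97 ± 0.09, adjusted p = 0.00718). The splicing regulators Ptbp1 and Hnrnpl fell by 0.68 ± 0.11 (adjusted p = 0.0342) and 0.65 ± 0.10 (adjusted p = 0.0342). Srsf5, Ptbp1 and Hnrnpl were chosen after their values were seen.

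Over the 29 lists with 0 called in limma, edgeR's quasi-likelihood test also called 0. In limma 71 of their 445 members had an unadjusted p under 0.05, a share near that of all genes (2564 of 14967). Of the same members the authors' deposited table called 12 higher and 22 lower, among them 4 female-biased genes as higher and 3 male-biased, 3 bile acid and 3 acute phase genes as lower. Besides those already described the 29 lists include ribosome biogenesis (23 genes), cytosolic ribosomal proteins (87), proteasome subunits (38), autophagy and lysosome (18), acute phase proteins (16), lipoprotein genes (15), pericentral and periportal hepatocyte genes (10 each) and mitochondrially encoded genes (31). In these lists 83 of the 87 ribosomal protein genes had a positive change (median 0.1564). Of the 87, 2 had an unadjusted p under 0.05 in limma. The groups of 6 were higher without overlap, against 11.7% of all genes. Psmd11, a lid subunit of the proteasome, changed by -0.58 ± 0.11 (adjusted p = 0.0528) and Gabarapl1, which coats autophagosomes, by -1.12 ± 0.22 (adjusted p = 0.0574). Fga, a fibrinogen chain, had 232780, 226830 and 202850 at CT03 and 154390, 110670 and 142020 at CT15 (-0.71 ± 0.22, adjusted p = 0.161).

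**Figure D4:**
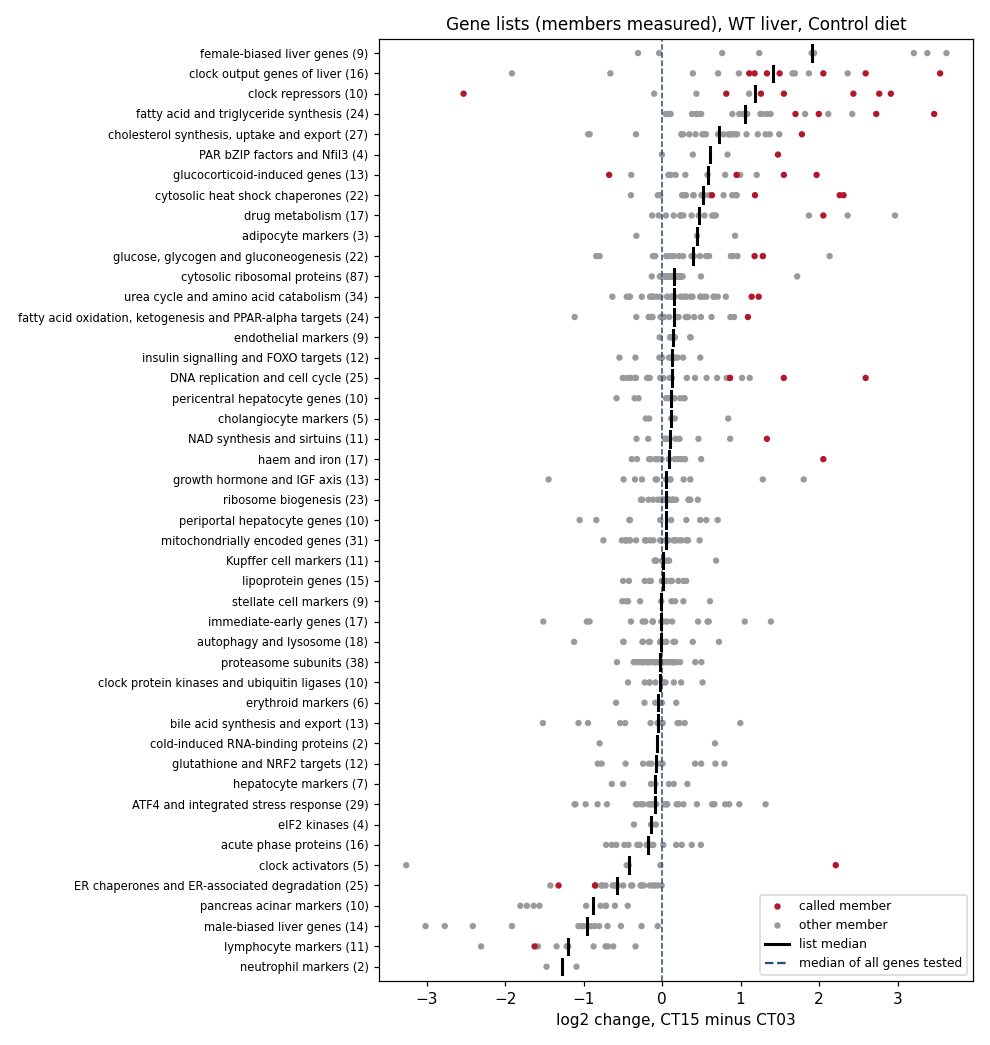
Change from CT03 to CT15 (log2) of each measured member of the 46 gene lists, ordered by list median (black bars), with called members in red. The dashed line is the median of all genes tested, 0.0027. Clock outputs, clock repressors and lipid synthesis stand at the upper end among lists with called members, and ER chaperones and lymphocyte markers at the lower end.

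Sex-biased liver genes, which follow the pattern of growth hormone, had 0 called and large differences between mates. All 14 male-biased genes had a negative change, and the list took 13510 to 15250 RPM at CT03 but 2331 to 11830 at CT15. Hsd3b5, a male-specific steroid enzyme, had 8935, 17174 and 17100 at CT03 and 3686, 3187 and 702 at CT15 (-2.77 ± 0.59, adjusted p = 0.0730). Serpina1e, a male-biased protease inhibitor of a family with near-identical copies, had 294200, 176350 and 258600 and 88772, 92155 and 10867 (-2.41 ± 0.76, adjusted p = 0.169). CT15 replicate 3 was the lowest mouse in both. Of the 9 measured female-biased genes Fmo2, a monooxygenase, had 299, 299.7 and 275 and 719, 806 and 2411 (1.94 ± 0.41, adjusted p = 0.0714), and Acot3, a thioesterase, had 47.1, 77.1 and 256 and 524, 1476 and 979 (3.21 ± 0.61, adjusted p = 0.0531). Cyp2a4, near-identical to Cyp2a5, had 72.1, 16.2 and 25.9 and 35.5, 337 and 5116 (3.62 ± 1.54, adjusted p = 0.284). CT15 replicate 3 thus had the lowest Hsd3b5 and Serpina1e and the highest Fmo2 and Cyp2a4 values of the 6.

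Markers of other cells were compared in the same way. All 11 lymphocyte markers had a negative change, 7 without overlap, and their sum was 10.78 to 20.66 RPM at CT03 and 5.629 to 8.038 at CT15, with no marker at 0 in any library. Cd79a, a signalling chain of the B cell receptor, had 151, 94.2 and 91.7 at CT03 and 40.9, 27.8 and 37.0 at CT15 and was the 1 called (-1.63 ± 0.28, adjusted p = 0.0409). Its partner chain Cd79b changed by -1.35 ± 0.29 (adjusted p = 0.0773) and Cd8a of T cells by -2.31 ± 0.48 (adjusted p = 0.0696). The immunoglobulin gene Ighd, chosen after its values were seen, fell from 70.1, 80.9 and 76.4 to 16.0, 18.5 and 18.5 (-2.04 ± 0.24, adjusted p = 0.0171). Kupffer cell, neutrophil, endothelial, stellate, cholangiocyte, erythroid, acinar and adipocyte markers had 0 called. The Kupffer cell sum was 525.7 to 1197 RPM at CT03 and 618.4 to 836.4 at CT15, and the macrophage receptor gene Marco had 1613, 154 and 118 and 1638, 369 and 203, highest in replicate 1 at both times. Pancreas acinar markers, 10 of 13 measured and 5 of them at 0 in at least 1 library, took 27.86 to 31.82 RPM at CT03 and 9.241 to 29.23 at CT15. Their pattern was uneven: Ctrb1, a pancreatic protease, had 122, 17.1 and 23.5 and 177, 6.17 and 0, again highest in replicate 1, while Cela1, an elastase, had 638, 1146 and 1042 and 543, 530.0 and 352 (-0.97 ± 0.25, adjusted p = 0.115). Replicate 1 is a different mouse at each time, and the replicate numbers did not pair the mice. The part of these cell markers in the changes above was not tested.

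The time effect was set beside that of 2 other conditions measured in other mice, WT on LeuD and KO on Control, with the difference tested in 1 limma fit of 12 libraries. Between the diets 1 of 14567 genes (0.00686%) differed, Nfil3, which changed by -0.0028 ± 0.13 in Control mice and by -1.49 ± 0.12 in LeuD mice (a difference of -1.49 ± 0.18 with an adjusted p = 0.0382). With 1 library left out the count was 6 for replicate 2 of WT Control CT03, 7 for replicate 2 of WT LeuD CT15 and 0 for each of the others. Between the genotypes 4 of 14525 (0.0275%) differed, all of them genes of the major histocompatibility complex, H2-Eb1, H2-Q5, H2-T22 and H2-T23. None of them was called for time in WT Control, where H2-Eb1 changed by -0.28 ± 0.23, H2-Q5 by 0.79 ± 0.23, H2-T22 by 0.16 ± 0.17 and H2-T23 by -0.07 ± 0.20. Related genes, some of them near-identical, make the counts uncertain. Without KO Control CT03 replicate 3 there were also 4, and without any other single library 0 to 2. At an unadjusted p under 0.05 the counts were 958 genes for the diets and 743 for the genotypes.

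Side by side, Cry1 changed by 1.26 ± 0.15 in WT on Control, 0.13 ± 0.19 in WT on LeuD and 2.19 ± 0.42 in KO on Control. Dbp changed by 0.83 ± 0.66, 5.15 ± 0.27 and -1.17 ± 1.47, and Arntl by -0.43 ± 0.22, -2.66 ± 0.36 and 0.38 ± 0.64 in the same order. The differences between diets did not pass for Cry1 (-1.13 ± 0.26, adjusted p = 0.355), Dbp (4.31 ± 0.80, adjusted p = 0.251) or Arntl (-2.23 ± 0.48, adjusted p = 0.282), which does not show that they were alike. Hspa1b changed by 2.31 ± 0.15, 1.59 ± 0.37 and 2.46 ± 0.69, positive in all. Manf changed by -0.86 ± 0.14, -0.86 ± 0.15 and 0.05 ± 0.44, and its difference between genotypes did not pass (0.90 ± 0.51, adjusted p = 0.983). Acot2 changed by 1.09 ± 0.15, -0.30 ± 0.21 and 0.24 ± 0.86, and Acly by 2.00 ± 0.26, 0.89 ± 0.25 and 0.44 ± 0.995, also without a called difference. Of the 212 called genes, 211 were measured in WT on LeuD, where 205 (97.2%) had the same sign, against 71.1% of all genes. In that comparison 1424 genes (9.61%) were called, 146 of the 211 among them with the same sign. In KO on Control 202 of 211 (95.7%) had the same sign, against 66% of all genes, and 3 were among the 6 genes called there (0.0407%). In KO on LeuD 199 of 210 (94.8%) had the same sign, against 64.7%, and 47 were among the 120 called there (0.805%).

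**Figure D5:**
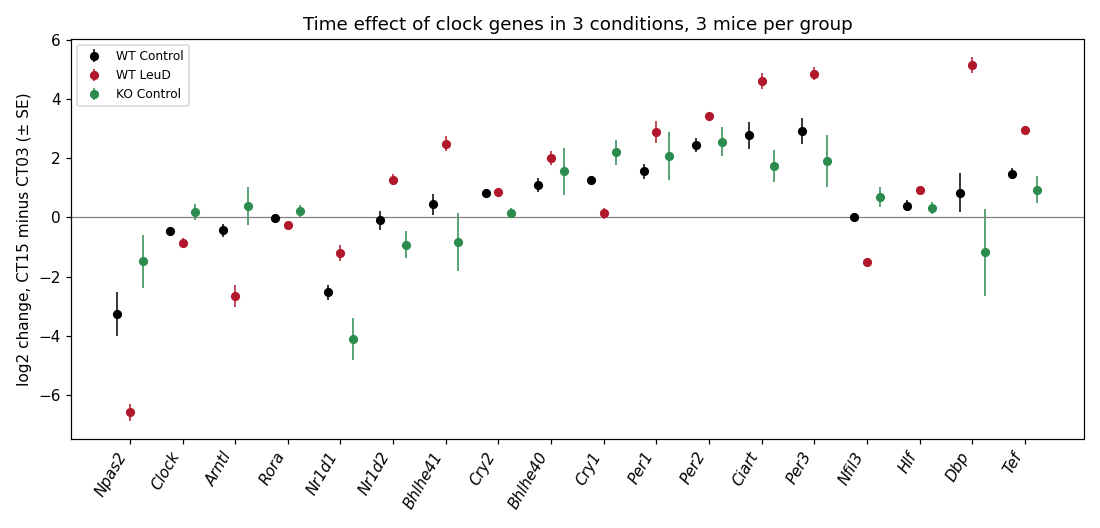
Change from CT03 to CT15 (log2, points) with its SE (bars) of 18 clock genes in WT on Control, WT on LeuD and KO on Control, 3 mice per group. Nfil3 is the gene whose change differs between the diets by test, and the bars of Dbp and Bhlhe41 are longer in KO on Control than in the other conditions.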

How the data were processed

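RNA-seq of frozen liver was analysed for 3 CT03 and 3 CT15 mice of the WT Control groups. The deposited values, 1 table per comparison, are a signal, namely gene counts divided by 1 size factor per library and table. Reads were trimmed with Trimmomatic 0.36, aligned with STAR 2.5.2b to GRCm39 and counted with featureCounts of Subread 1.5.2, per the submitters' processing notes, which also name DESeq2 and DESeq. The sources used here do not say whether counting used strand, and the library kit named in the labels' protocols (NEBNext Ultra II) does not mark strand, so overlapping genes are not told apart. The authors' deposited log2 fold changes and adjusted p-values stand in the same tables.

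All values (100%) were whole reads within 0.01 once multiplied by a library's factor. The reads of CT03 replicate 1, whose factor was 0.99875, were compared with those recovered from another table, where 0 of 14593 genes differed. Mates differed by more than sampling noise (chi-square per degree of freedom 33 to 154). Depth was 34135498 to 43544450 reads, and every listed gene had at least 61 reads over the 6 libraries, so that no further filter was used.

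The main test was limma 3.58.1 (R 4.3.3) with an intensity trend on log2(value + 1), 3 against 3 mice, with Benjamini-Hochberg adjustment over 14967 genes and a threshold of 0.05. Such fold changes understate the change of low genes. Differences between time effects were tested as an interaction in 12 libraries. The genes tested were shared by both tables and had a mean of at least 10 in at least 1 of them. The alternatives were edgeR 4.0.16 and DESeq2 1.42.0 on the recovered reads, TMM scaling, other pseudocounts, a filter on low values, no trend, a replicate block and each library left out, and after the data were seen also the list counts without each library. The scripts were tested on simulated data. The text names all measured clock activators, repressors and PAR bZIP genes, the 4 genes of lowest p in each other list, the 12 largest called changes in each direction with a mean of at least 50, and Eif2ak4, and gives most of these 191. Some results are not reported here. The members and lists were chosen with earlier results of these data known.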

Additional observations from a re-analysis of the deposited data

Results flagged for a closer look

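The difference between diets in the time effect passed its test for 1 gene. Nfil3, a repressor at D-box elements, had a time effect that was -1.49 ± 0.18 on LeuD minus Control in WT (limma interaction, adjusted p = 0.0382). On Control the 3 mice of each time overlapped, with 1224, 1380.5 and 1519.9 at CT03 and 1269, 1248 and 1613 at CT15.

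The difference between genotypes passed for 4 genes of the major histocompatibility complex, each with an adjusted p of 0.0264 in limma. The time effect in KO minus WT, both on Control, was -3.38 ± 0.39 for H2-Eb1 and -4.39 ± 0.56 for H2-Q5. It was -2.71 ± 0.34 for H2-T22 and -3 ± 0.39 for H2-T23. In WT Control, H2-Q5 had 176, 110.4 and 134 at CT03 and 244, 295 and 187 at CT15, and H2-T22 had 3831, 3347 and 3609.9 against 3180.2, 3979 and 5105. In the group means of all 24 libraries, H2-T23 was 7322 at CT03 and 870.1 at CT15 in KO on Control. In KO on LeuD it was 7953 and 1467. H2-Eb1 was 555.7 and 42.39 in KO on Control, and 675.5 and 53.93 in KO on LeuD. In the same order H2-T22 was 2590 and 430.2, and 2301 and 461.6. H2-Q5 was 96.24 and 7.611, and 82.92 and 13.04. Whether the KO mice of the 2 times differed in anything but the hour was not tested. The 4 genes belong to families of related genes, some of them near-identical, so their counts are uncertain.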

How the results depend on the processing

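The count of 212 called genes was 42 with the replicate block (37 of them shared), 906 with DESeq2, 7 without the intensity trend and 907 by the authors' deposited adjusted p, and 4 to 133 with 1 library left out. The replicate numbers did not pair the mice (correlations of deviations 0.00623, 0.0958 and -0.0691). The difference between diets had 1 gene, and it had 71 with DESeq2, 0 without the trend and 0 to 7 with 1 library left out. The replicate block gave 1 there too, which was another gene. The difference between genotypes had 4 genes, against 1 with the replicate block, 10 with DESeq2, 0 without the trend and 0 to 4 with 1 library left out. The cause was not tested.

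Signs turned only among genes that were not called. Ctrb1 was 0.163 in edgeR and 0.189 in edgeR on all 24 libraries. Nfil3 was 0.00205 in DESeq2 and in the authors' deposited table, 0.00642 in edgeR on 24 libraries and -0.122 to 0.0723 with 1 library left out. Nr1d2 was 0.00428 in edgeR on 24 libraries and -0.331 to 0.318 with 1 left out. With 1 library left out H2-T22 ran from -0.0135 to 0.328, H2-T23 from -0.284 to 0.0744, Marco from -0.171 to 1.88 and Rora from -0.122 to 0.118. Among the 59 named called genes, 568 values under an alternative kept the direction and the call and 375 kept the direction alone. Among the 65 not called, 921 stayed so, 93 passed the threshold and 20 changed sign. With 3 mice per group, small changes in low genes were not detectable. Large changes in abundant genes with a wide spread between mates, such as Fasn, Hsd3b5 and Por, also missed the threshold.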
